A study of Mus musculus with 186 samples.

Results

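The genes Fgf3, Tagln, Abi3bp, Sec14l3, Ffar3, Ccr6 and Cytip are described across brain regions, ages and genotypes of Akap11 mutant mice. They are 7 of the 28338 genes in the deposited table. They were chosen by their measured levels, as genes much lower in Akap11 -/- than in wild-type striatum at 4 weeks, at 12 weeks or at both ages. That contrast is therefore given as a description and is not tested for them. RNA was sequenced from 186 bulk tissue libraries covering 6 regions, namely striatum, prefrontal and somatosensory cortex, hippocampus, substantia nigra and thalamus. The mice were 4 or 12 weeks old and were wild type (WT), Akap11 +/- (HET) or Akap11 -/- (KO), with no other allele or treatment named in the labels. Of the 36 groups, 30 held 5 libraries and 6 held 6, and each of the 6 striatal groups held 5. The labels do not say how the mutant allele was made, what strain carried it, or whether libraries of different regions came from the same animals. They do not say either that the libraries of a group came from separate animals, so a p-value here measures the spread between libraries.

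AKAP11 belongs to the A-kinase anchoring proteins, which hold protein kinase A (PKA) near its substrates. PKA is activated by cyclic AMP, and in striatal projection neurons dopamine and adenosine receptors set the level of cyclic AMP. In the nucleus PKA phosphorylates CREB, a factor that binds the cyclic AMP response element. The 7 genes come from unrelated families. Fgf3 encodes a secreted fibroblast growth factor known for its role in the developing inner ear and hindbrain. Ffar3 encodes a receptor for short-chain fatty acids and Ccr6 a receptor for the chemokine CCL20, and both couple to inhibitory G proteins. Cytip encodes a partner of the cytohesins, described mainly in blood cells. Sec14l3 belongs to a family of lipid-binding proteins. Tagln encodes transgelin, an actin-binding protein of the calponin family that is used as a smooth muscle marker. Abi3bp encodes an extracellular matrix protein that binds ABI3.

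Levels are counts relative to the library total (CPM, with TMM scaling over all 186 libraries), so that 1 gene can be compared between groups but different genes cannot. Library totals ranged from 20.8 to 73.3 M estimated counts. Akap11 itself averaged 403 CPM in WT striatum at 4 weeks, 51.8% of that in HET and 5.10% in KO. At 12 weeks it averaged 341 CPM, with 53.7% in HET and 6.20% in KO, and the groups did not overlap at either age. Outside striatum 1 library went against its label, WT 92 of 4-week substantia nigra, where Akap11 was 43.6 CPM, below every HET library (96.4 CPM or more). Without that library, as with it, no test of the 7 genes in that region passed the threshold given below. Each striatal library expressed the striatal neuron markers, whose summed level lay between 8211 and 25895 CPM, against at most 2586 CPM in any library of another region. Among the 4-week striatal libraries, 4 stood apart in 10 cortical excitatory neuron markers. Their sum was 1667 CPM in KO 161, 1369 in KO 51, 1000 in WT 92 and 874 in KO 163, against 180 to 289 CPM in the other 4-week libraries. The striatal marker sum was lowest in KO 161 (8211 CPM), KO 51 (9161) and KO 163 (12410). At 12 weeks the cortical sum was 214 to 239 CPM in KO and 174 to 194 in WT, without overlap. KO 12 and KO 932 were the KO libraries at 4 weeks without a raised cortical sum. In bulk tissue, fewer cells of a type and less RNA per cell cannot be told apart.

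In KO striatum the mean level of the 7 genes lay between 9.93% and 58.4% of WT at 4 weeks and between 8.68% and 40.7% at 12 weeks. Only 1 of 7 was under 10% of WT at each age, Sec14l3 at 4 weeks and Ccr6 at 12 weeks, and 4 of 7 were under 25%. "Much lower" thus describes the set, and near loss describes few of its values. Every KO library was below every WT library for 6 of 7 genes at each age. Over all genes tested, 1.69% at 4 weeks and 2.93% at 12 weeks had that separation, and 1.75% and 2.6% were called lower by edgeR's quasi-likelihood test with a Benjamini-Hochberg adjusted p under 0.05. The exceptions were Abi3bp at 4 weeks and Fgf3 at 12 weeks. Cytip at 12 weeks is counted as separate, though its lowest WT and its highest KO library each had 5 estimated counts. All 7 passed the filter on low counts in striatum at both ages. The median log2 fold change, KO against WT, was -2.51 at 4 weeks and -2.19 at 12 weeks, against -0.0015 and 0.0053 over all genes tested.

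**Figure D1:**
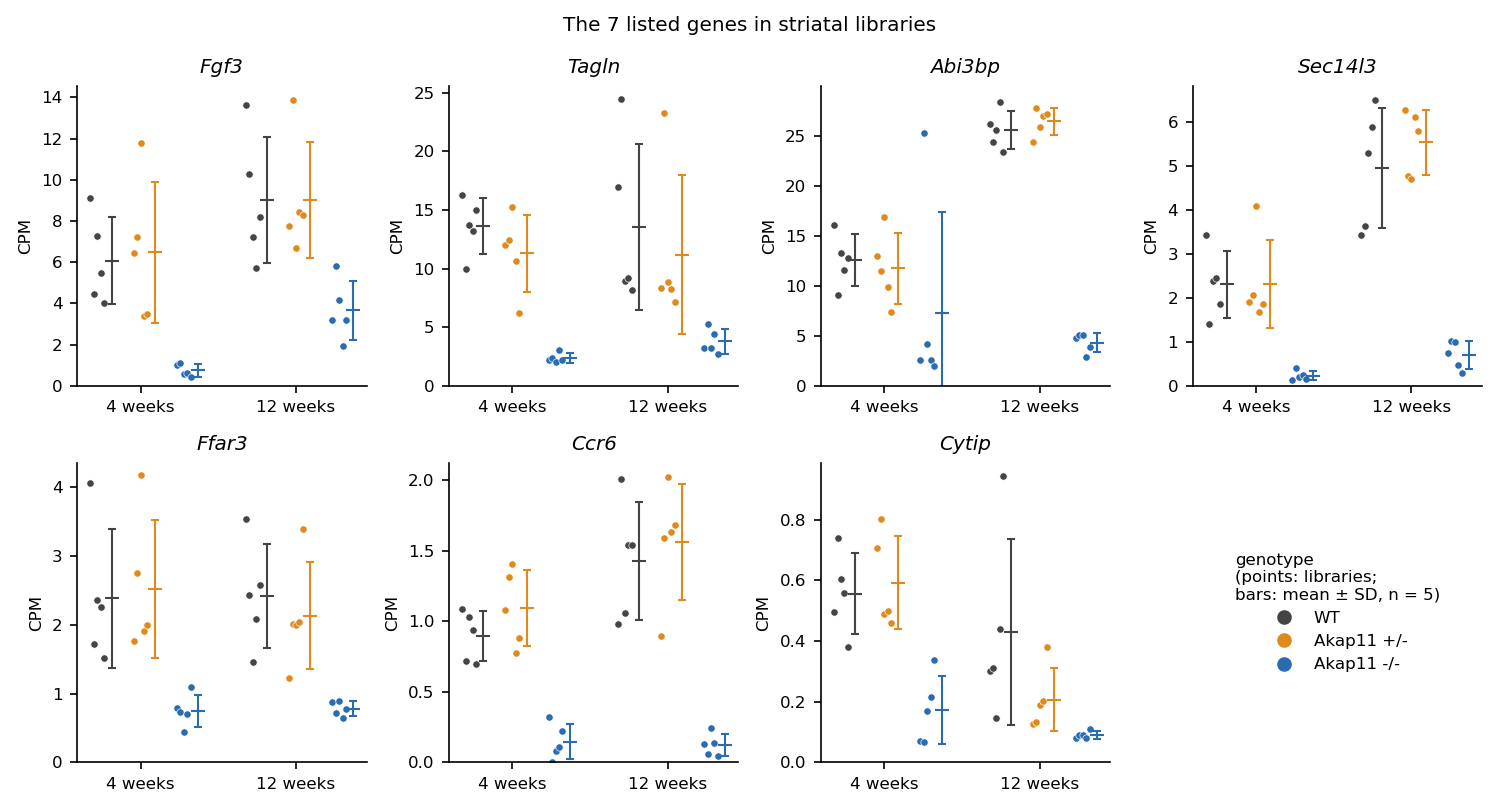
Levels (CPM, linear axes from 0) of the 7 genes in the 30 striatal libraries, by age and genotype. Points are libraries and bars are means ± SD (n = 5), with the bar of Abi3bp in 4-week KO ending at the axis; the KO points lie below the WT points except Abi3bp in KO 51 at 4 weeks (25.3 CPM) and Fgf3 in KO 2 at 12 weeks (5.83 CPM).

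Fgf3, the secreted ligand of the set (ENSMUSG00000031074, GRCm38 chr7:144838083-144844436, plus strand), was more strongly lowered in the younger KO striatum. At 4 weeks the WT libraries read 4.04, 4.48, 5.46, 7.26 and 9.12 CPM and the KO libraries 0.421, 0.588, 0.623, 1.04 and 1.10 CPM. At 12 weeks WT read 5.70, 7.24, 8.21, 10.3 and 13.6 CPM and KO 1.96, 3.19, 3.21, 4.16 and 5.83 CPM. The KO level was thus 12.4% of WT at 4 weeks, with a wide gap between the groups, and 40.7% at 12 weeks, where KO 2 passed the lowest WT library. The log2 fold change was -3.03 (SE 0.38) at 4 weeks and -1.30 (SE 0.28) at 12 weeks. KO 12 held 1.04 CPM and KO 932 held 0.421 CPM.

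Ffar3, one of the receptors (ENSMUSG00000019429, chr7:30854330-30856178, minus strand), was lowered to a similar share at both ages. Its 4-week values were 1.52, 1.72, 2.26, 2.36 and 4.07 CPM in WT and 0.448, 0.704, 0.731, 0.785 and 1.09 CPM in KO. Its 12-week values were 1.47, 2.08, 2.43, 2.58 and 3.54 CPM in WT and 0.645, 0.721, 0.770, 0.878 and 0.894 CPM in KO. The groups did not overlap, and KO kept 31.6% of the WT mean at 4 weeks and 32.3% at 12 weeks. The log2 fold changes were -1.66 (SE 0.32) and -1.63 (SE 0.27).

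Ccr6, the chemokine receptor (ENSMUSG00000040899, chr17:8236043-8257141, plus strand), rested on few reads in KO, at most 11 estimated counts per library. WT read 0.695, 0.717, 0.939, 1.03 and 1.09 CPM at 4 weeks, and KO read 0, 0.0840, 0.108, 0.224 and 0.321 CPM. WT read 0.977, 1.06, 1.54, 1.54 and 2.00 CPM at 12 weeks, and KO read 0.0440, 0.0601, 0.133, 0.134 and 0.246 CPM. The lowest WT library was above the highest KO library at each age, and KO held 16.5% and 8.68% of the WT mean. The library at 0 was KO 51. The log2 fold change was -2.60 (SE 0.44) at 4 weeks and -3.48 (SE 0.38) at 12 weeks.

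Cytip, the cytohesin partner (ENSMUSG00000026832, chr2:58129137-58195532, minus strand), was the gene with the fewest reads. At 4 weeks WT read 0.379, 0.497, 0.558, 0.605 and 0.739 CPM, and KO 0.0664, 0.0714, 0.168, 0.217 and 0.337 CPM. At 12 weeks WT read 0.147, 0.303, 0.310, 0.439 and 0.944 CPM, and KO 0.0799, 0.0806, 0.0894, 0.0901 and 0.110 CPM. The 12-week KO values came from 3 to 5 estimated counts per library, so their order carries no information. The lowest 12-week WT library, WT 3, also had 5 estimated counts, so its place above KO 5 rests on the scaling to library totals. KO held 30.9% of the WT mean at 4 weeks and 21% at 12 weeks, with log2 fold changes of -1.65 (SE 0.36) and -2.19 (SE 0.48). An antisense gene, Gm13546, lies within its span without sharing exonic bases.

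Sec14l3, the lipid-binding protein gene (ENSMUSG00000054986, chr11:4064841-4077736, plus strand), had the lowest share of WT left at 4 weeks. WT libraries read 1.41, 1.86, 2.39, 2.46 and 3.44 CPM and KO libraries 0.143, 0.168, 0.196, 0.244 and 0.399 CPM. At 12 weeks they read 3.44, 3.64, 5.31, 5.90 and 6.51 CPM in WT and 0.286, 0.483, 0.745, 1.01 and 1.02 CPM in KO. KO held 9.93% and 14.3% of the WT mean without overlap, and the log2 fold change was -3.32 (SE 0.35) and -2.81 (SE 0.28). The mean was higher at 12 than at 4 weeks in each genotype.

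Tagln, the actin-binding protein gene (ENSMUSG00000032085, chr9:45929619-45936058, minus strand), was more variable among the older than among the younger WT libraries. WT read 9.96, 13.2, 13.7, 15 and 16.3 CPM at 4 weeks and KO 2.07, 2.19, 2.25, 2.36 and 3.06 CPM. WT read 8.21, 8.94, 9.19, 17.0 and 24.4 CPM at 12 weeks and KO 2.71, 3.22, 3.24, 4.46 and 5.32 CPM. KO held 17.5% and 28.0% of the WT mean without overlap, with log2 fold changes of -2.51 (SE 0.20) and -1.85 (SE 0.37). Its exons overlap those of the antisense gene Gm48529 over 62.4% of their bases and those of Pcsk7, on the opposite strand, over 108 bases. The labels do not say whether reads were counted by strand, so the value of Tagln is uncertain to that extent.

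Abi3bp, the matrix protein gene (ENSMUSG00000035258, chr16:56477878-56690135, plus strand), is the one whose 4-week value rests on a single library. WT read 9.04, 11.55, 12.8, 13.3 and 16.1 CPM at 4 weeks, and KO read 1.99, 2.57, 2.64, 4.15 and 25.3 CPM. The highest KO value was KO 51, above every WT library, while the other 4 KO libraries were below every WT library. The KO mean was 58.4% of WT with KO 51 and 22.6% without it, and the log2 fold change was -0.78 (SE 0.56) with it and -2.15 without it. At 12 weeks WT read 23.4, 24.4, 25.6, 26.2 and 28.4 CPM and KO 2.85, 3.85, 4.82, 5.08 and 5.10 CPM, which is 16.9% of WT and a log2 fold change of -2.56 (SE 0.12). KO 51 was among the libraries with a raised cortical sum. Its Abi3bp level was 25.3 CPM, and the highest cortical library of any age and genotype read 14.3 CPM. The part of cortical tissue in the KO 51 value was not tested.

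Without KO 51, KO 161, KO 163 and WT 92, the median log2 fold change of the 7 genes at 4 weeks was -2.56. KO 12 had the highest striatal marker sum of all (25895 CPM) and WT 914 the next (24826 CPM). Both were among the libraries with few whole values that are described with the processing. In KO 12 Fgf3 was 1.04, Tagln 2.25, Abi3bp 2.64, Sec14l3 0.143, Ffar3 0.785, Ccr6 0.321 and Cytip 0.0714 CPM. Within WT, 1 library, WT 42, was highest for 6 of 7 genes at 4 weeks, all but Cytip. Within HET, HET 93 was highest for 6 of 7, again all but Cytip. Markers of the other cell types in which these genes are best known overlapped between WT and KO at both ages. The summed level of 12 mural and smooth muscle markers, relevant to Tagln, was 164 to 244 CPM in WT and 151 to 219 in KO at 4 weeks, and 115 to 148 against 130 to 162 at 12 weeks. The 10 fibroblast and meningeal markers summed to 74.1 to 92.2 CPM in WT and 65.7 to 78.5 in KO at 4 weeks, and to 49.8 to 62.4 and 58.6 to 60.5 at 12 weeks. Of 10 lymphocyte markers, relevant to Ccr6 and Cytip, 8 were at most 0.476 CPM in every striatal library, 1 of them at 0 in all 30, Ptprc was between 1.54 and 2.85 CPM, and Cd4 alone was high, between 102 and 290 CPM. Single markers that were called in KO at 4 weeks were Col1a1 (-0.59), C1qa (-0.35), C1qb (-0.30) and Aqp4 (-0.58), and at 12 weeks Rgs9 (-0.49), Pde10a (-0.43) and Lamp5 (0.31), as log2 fold changes. Rgs9 and Pde10a mark striatal neurons. The 10 striatal neuron markers had a median log2 fold change of -0.33 at 4 weeks (-0.62 to -0.18), with none called. At 12 weeks their median was -0.19 (-0.49 to 0.20). The median of the cortical markers was 2.02 at 4 weeks and 0.03 at 12 weeks. The part of either marker set in the values of the 7 genes was not tested.

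The HET libraries did not share in the difference, apart from Cytip at 12 weeks. HET means were 83.0% to 122% of WT at 4 weeks and, leaving out Cytip, 82.6% to 112% at 12 weeks. Fgf3 in HET was 6.48 ± 3.42 CPM at 4 weeks and 9.00 ± 2.81 at 12 weeks, Abi3bp 11.7 ± 3.57 and 26.5 ± 1.36, and Sec14l3 2.33 ± 1.00 and 5.54 ± 0.745 CPM (SD, n = 5 each). Every KO library was below every HET library for 6 of 7 genes at 4 weeks (all but Abi3bp, because of KO 51) and 7 of 7 at 12 weeks, a separation that 3.18% and 3.05% of all genes tested had. KO is the group the genes were chosen in, so these counts are a description. For Cytip at 12 weeks the separation again rests on few reads, with 5 estimated counts in HET 2 and in KO 5. Cytip at 12 weeks read 0.128, 0.134, 0.188, 0.203 and 0.381 CPM in HET, 48.3% of the WT mean, and its HET libraries overlapped those of WT. The log2 fold change of HET against WT lay between -0.28 and 0.28 at 4 weeks. At 12 weeks it lay between -0.28 and 0.17 for 6 genes and was -1.02 (SE 0.43) for Cytip. These differences share the WT libraries of the choice and were not tested.

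Upstream sequences were searched for the cyclic AMP response element, the site bound by CREB, as a description of the genes. RefSeq promoters (GRCm38.p6) matched 5 of the 7 genes, Ccr6 with a pair of start sites, and were searched on both strands over 250 bases before and 50 after the start. The motifs were the cyclic AMP response element TGACGTCA, its shorter core TGACG, which lies within it, the AP-1 site TGANTCA, the EGR site GCGTGGGCG, the NBRE site AAAGGTCA, the CArG box and TATAAA. The full element was found in Ffar3, starting 68 bases before the start, and in 1.80% of 32544 distinct promoters. The shorter core was found in Ffar3, in Sec14l3 246 bases before the start and in the second promoter of Ccr6 207 bases before it, and in 20.9% of all promoters. No other motif matched in these 5 genes. The 250 bases before the start of these 3 genes follow, to show where the match lies, 5′ to 3′ on the gene's strand, with the motif in capitals.
Ffar3, chr7:30856179-30856428, minus strand: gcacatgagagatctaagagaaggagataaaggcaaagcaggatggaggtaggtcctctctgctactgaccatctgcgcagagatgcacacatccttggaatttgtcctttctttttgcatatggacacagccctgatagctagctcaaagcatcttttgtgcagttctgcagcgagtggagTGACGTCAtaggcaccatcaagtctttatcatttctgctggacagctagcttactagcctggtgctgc
Sec14l3, chr11:4064603-4064852, plus strand: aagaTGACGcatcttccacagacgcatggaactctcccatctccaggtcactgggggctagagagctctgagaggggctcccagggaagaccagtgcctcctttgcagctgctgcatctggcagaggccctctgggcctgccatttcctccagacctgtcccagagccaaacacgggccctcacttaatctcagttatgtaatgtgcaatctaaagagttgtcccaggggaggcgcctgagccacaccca
Ccr6, second promoter, chr17:8242276-8242525, plus strand: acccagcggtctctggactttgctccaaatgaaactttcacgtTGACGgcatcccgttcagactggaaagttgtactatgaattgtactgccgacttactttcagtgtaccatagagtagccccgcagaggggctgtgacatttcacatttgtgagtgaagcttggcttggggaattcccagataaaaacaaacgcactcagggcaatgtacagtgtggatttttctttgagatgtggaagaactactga
A match describes these letters alone, and no binding was measured.

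Across regions, all 7 genes had their highest mean in striatum in WT and in HET at both ages. In HET, 21.7% of all genes with at least 0.2 CPM in a region had their highest mean in striatum at 4 weeks and 22.3% at 12 weeks. In KO the striatum stayed highest only for Ffar3 and Ccr6 at 4 weeks, and for these and Fgf3 at 12 weeks. Sec14l3 in KO was highest in prefrontal cortex, 1.97 CPM at 4 weeks against 0.230 in striatum. Tagln in KO was highest in substantia nigra at 4 weeks (6.08 CPM, against 2.39 in striatum), and Abi3bp in somatosensory cortex at 12 weeks (9.17 CPM, against 4.34). Cytip in KO was highest in hippocampus, 0.751 CPM against 0.172 in striatum at 4 weeks and 0.493 against 0.0900 at 12 weeks. WT and KO striatum were the groups of the choice, which favours genes well expressed in WT striatum. The orders in WT and KO therefore follow in part from the choice. HET means in striatum lay near those of WT, apart from Cytip at 12 weeks. The HET order is thus not free of the choice either, and all these orders are a description.

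**Figure D2:**
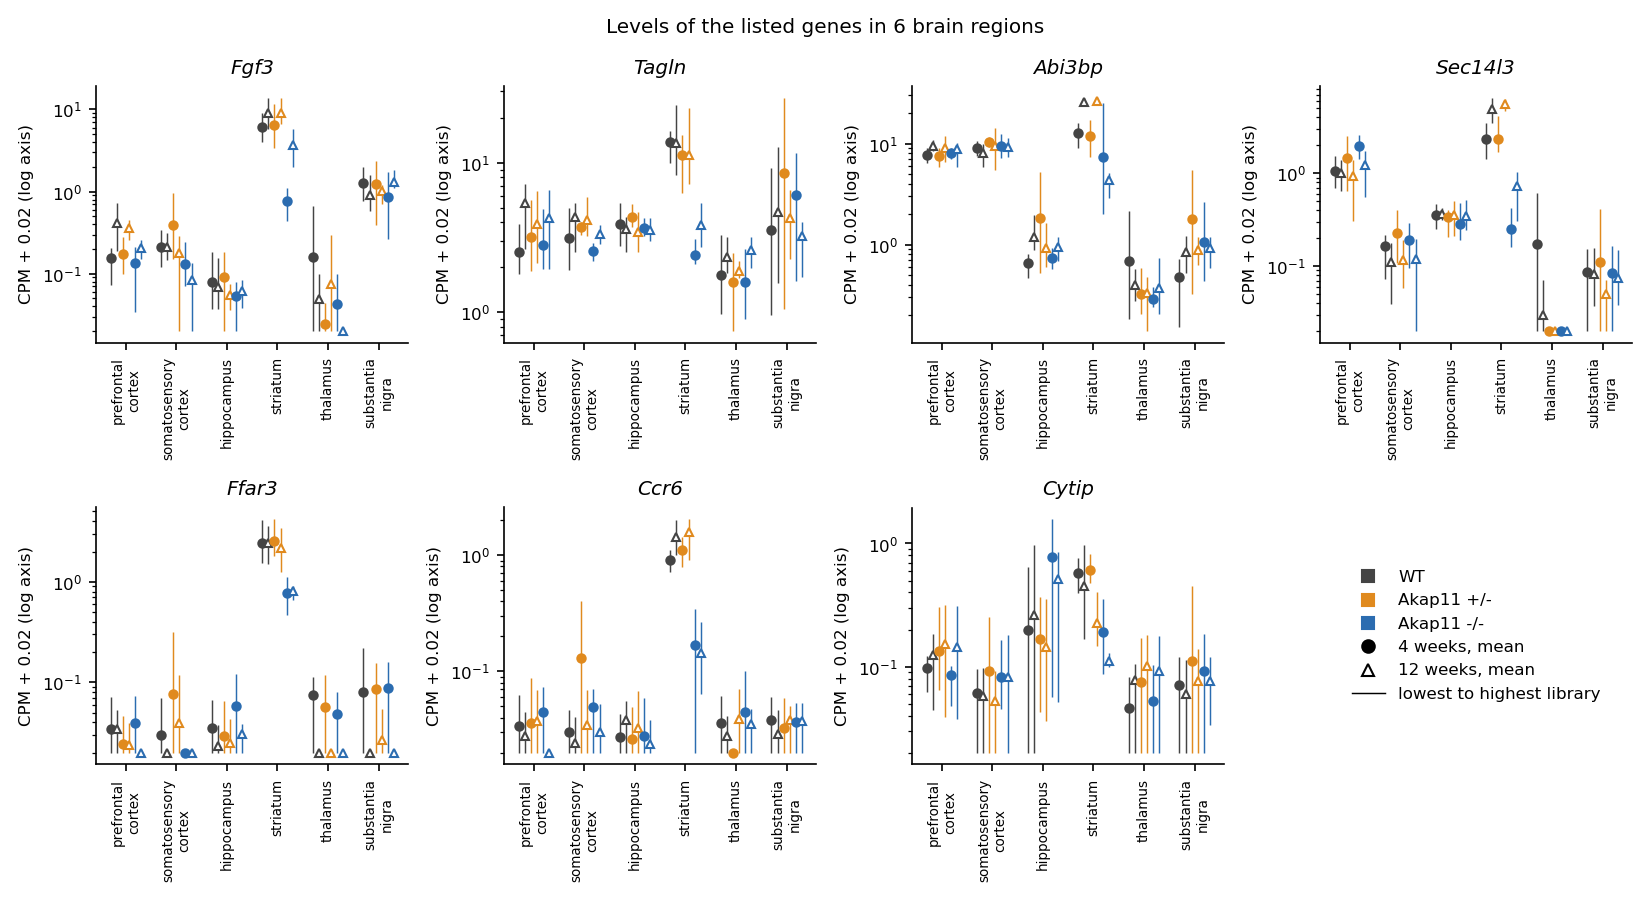
Mean CPM of each gene in 6 regions (log axis, 0.02 added so that 0 can be drawn), by genotype (colour) and age (circles 4 weeks, open triangles 12 weeks). Lines run from the lowest to the highest library; WT and HET are highest in striatum for all 7 genes, and Ffar3 and Ccr6 are near 0 elsewhere.

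The genes differed in how far they were restricted to striatum. In the HET libraries, which the choice did not use, Ffar3 averaged 2.52 CPM in striatum at 4 weeks and 0.0650 CPM in substantia nigra, the next region. At 12 weeks the Ffar3 averages were 2.13 and 0.0196 CPM, the latter in somatosensory cortex. Of the 156 libraries outside striatum, 102 had no read of Ffar3 and 88 none of Ccr6. The highest value outside striatum was in the same library for both, somatosensory cortex HET 93, with 0.296 CPM of Ffar3 and 0.381 of Ccr6. That library also had the highest striatal marker sum outside striatum, 2586 CPM, and HET 162, next for Ccr6 in 4-week somatosensory cortex (0.241 CPM), had 1491 CPM, against at most 816 in the other libraries of that region and age.

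Fgf3 and Sec14l3 each had 1 further region. Fgf3 in HET averaged 6.48 CPM in striatum and 1.22 in substantia nigra at 4 weeks, and 9.00 and 0.992 at 12 weeks. Sec14l3 averaged 2.33 CPM in striatum and 1.45 in prefrontal cortex at 4 weeks, and 5.54 and 0.909 at 12 weeks. No HET or KO thalamic library had a read of Sec14l3, which allows up to 0.144 CPM in the smallest of them (3 counts, counting error only). Abi3bp averaged 11.7 CPM in HET striatum at 4 weeks, 10.3 in somatosensory and 7.57 in prefrontal cortex, and 26.5, 9.42 and 9.08 CPM at 12 weeks. Tagln in HET averaged 11.3 CPM in striatum and 8.48 in substantia nigra at 4 weeks, the latter with an SD of 10.3 and with HET 941 at 27.2 CPM, and 11.2 and 4.24 CPM at 12 weeks.

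HET striatum was tested against the mean of the other 5 regions in 1 edgeR fit per age. The choice favours genes high in WT striatum, and HET means there lay near those of WT, apart from Cytip at 12 weeks. A higher level in HET striatum was thus in part fixed by the choice. The differences and adjusted p-values of this comparison are therefore a description and no independent support. Tagln was higher by a log2 difference of 1.62 (SE 0.37, adjusted p 0.000275) at 4 weeks and 1.75 (SE 0.22, adjusted p 6.61e-08) at 12 weeks. Abi3bp was higher by 2.30 (SE 0.36, adjusted p 1.5e-06) and 3.87 (SE 0.15, adjusted p 2.46e-19). Over all genes, 32.6% at 4 weeks and 34.7% at 12 weeks were called higher in HET striatum, so a call in this comparison is common. Fgf3 (5.64 and 5.82), Sec14l3 (4.29 and 6.19), Ffar3 (6.54 and 8.13), Ccr6 (6.13 and 6.37) and, at 4 weeks, Cytip (2.65) also had positive log2 differences. For these the fit leans on regions at or near 0, and the values are no bounds. Ffar3, Ccr6 and Cytip passed the filter mainly through striatum, so no count over the 7 genes is drawn from this test. Cytip did not pass the filter at 12 weeks. Against single regions at 4 weeks, Abi3bp did not pass the threshold against somatosensory cortex (0.18, SE 0.50, adjusted p 0.777) or prefrontal cortex (0.63, SE 0.50, adjusted p 0.283). The same held for Sec14l3 against prefrontal cortex (0.67, SE 0.47, adjusted p 0.224) and Tagln against substantia nigra (0.42, SE 0.50, adjusted p 0.465). At 12 weeks the differences for Abi3bp and Sec14l3 against those regions were 1.5, 1.55 and 2.62, and that of Tagln was 1.42, each with an adjusted p of at most 0.000324.

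KO was compared with WT in the other 5 regions, which the choice did not use, in 10 edgeR fits of 1 region and age. Of 70 combinations of gene and fit, 30 passed the filter, 10 each for Tagln and Abi3bp, 4 each for Fgf3 and Sec14l3, 2 for Cytip and none for Ffar3 and Ccr6. None of the 30 was called at an adjusted p under 0.05, and 4 had an unadjusted p under 0.05. Over all genes and fits, 0.018% of tests were called and 7.16% had an unadjusted p under 0.05. DESeq2 called none of the 30 either. The log2 fold changes ran from -1.34 to 2.15 with a median of -0.05, and 16 of 30 were below 0. Tagln ranged from -0.55 to 0.80 (SE 0.16 to 0.80) over its 10 fits and Abi3bp from -1.34 to 1.20 (SE 0.13 to 0.70). In the cortices, where Abi3bp is well expressed, its values were between -0.10 and 0.18 with an SE of at most 0.21.

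**Figure D3:**
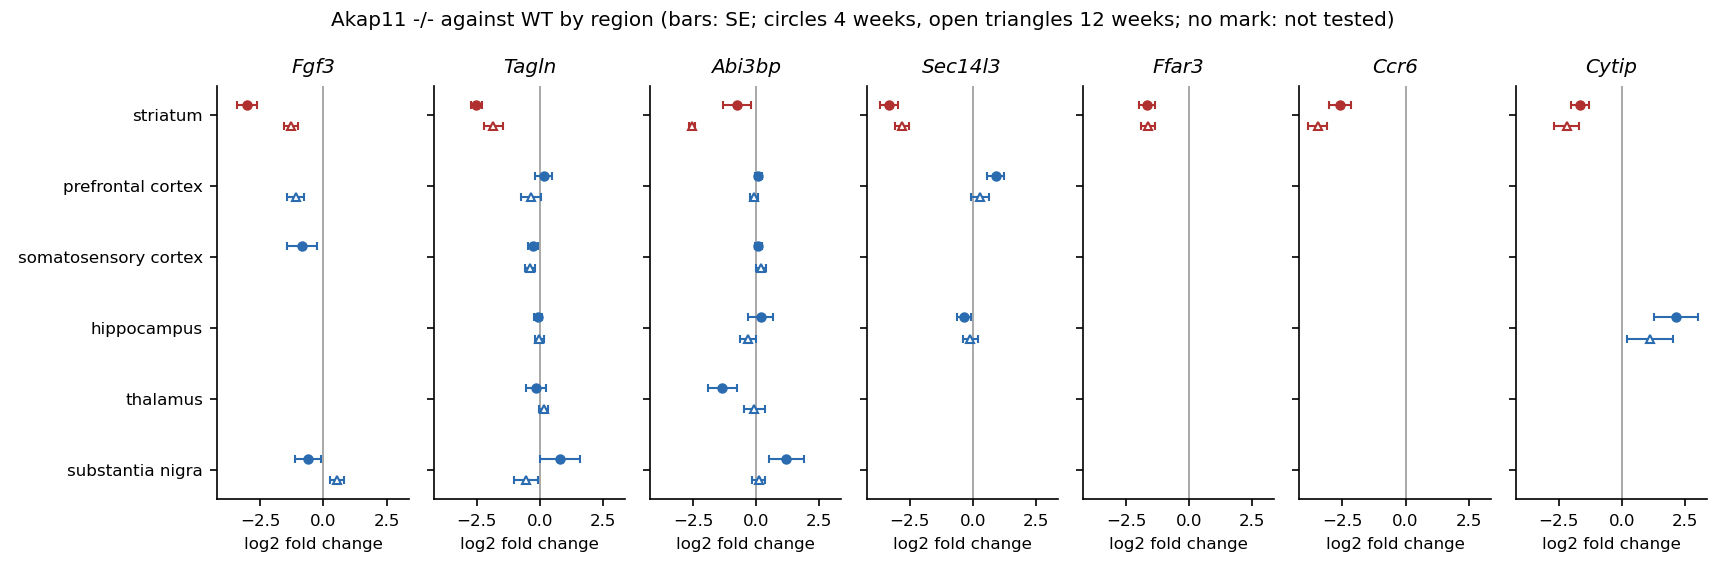
Log2 fold change of KO against WT with its SE, for each gene (panel), region (row) and age (circles 4 weeks, open triangles 12 weeks); striatum, which chose the genes, is in red. Striatal values are all negative, while the 30 values elsewhere lie on both sides of 0, and rows without a mark did not pass the filter.

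The 4 values with a small unadjusted p did not point one way. Fgf3 in prefrontal cortex at 12 weeks was 0.400 ± 0.201 CPM in WT and 0.184 ± 0.0390 in KO (SD, n = 5 each), a log2 fold change of -1.11 (SE 0.33, edgeR adjusted p 0.848). Sec14l3 in prefrontal cortex at 4 weeks was 1.04 ± 0.443 CPM in WT and 1.97 ± 0.420 in KO, a log2 fold change of 0.92 (SE 0.34, edgeR adjusted p 0.251), the opposite sign to striatum. Cytip in hippocampus at 4 weeks was 0.178 ± 0.229 CPM in WT (n = 6) and 0.751 ± 0.681 in KO (n = 5), with 2.15 (SE 0.88, edgeR adjusted p 0.745). The hippocampal KO values of Cytip were spread from 0.0366 to 1.56 CPM and overlapped WT. At 12 weeks the same comparison gave 1.11 (SE 0.91). Abi3bp in thalamus at 4 weeks gave -1.34 (SE 0.57, edgeR adjusted p 0.322). It rested on WT 914 at 2.14 CPM, and was -0.47 without that library.

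HET against WT was tested in the same 10 fits. None of 30 values was called, against 0.00497% of tests over all genes. An unadjusted p under 0.05 was found for 2 of the 30, near the 6.04% of tests over all genes. Both were Abi3bp at 4 weeks, 1.5 (SE 0.48, edgeR adjusted p 0.667) in hippocampus and 1.94 (SE 0.68, edgeR adjusted p 0.548) in substantia nigra. The highest library was HET 941 in each, at 5.26 and 5.47 CPM, and without it the values were 0.56 and 1.15. DESeq2 called none.

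Age was compared in the HET striatal libraries, which the choice did not use. Abi3bp rose from 11.7 to 26.5 CPM, a log2 fold change of 1.18 (SE 0.16, edgeR adjusted p 0.000356). Sec14l3 rose from 2.33 to 5.54 CPM, 1.25 (SE 0.22, edgeR adjusted p 0.00221), and Cytip fell from 0.591 to 0.207 CPM, -1.49 (SE 0.33, edgeR adjusted p 0.00701). These genes were called, as were 20.6% of all genes tested. Ccr6 (0.52, SE 0.24, edgeR adjusted p 0.138), Fgf3 (0.47, SE 0.31, edgeR adjusted p 0.296), Ffar3 (-0.24, SE 0.28, edgeR adjusted p 0.588) and Tagln (-0.01, SE 0.31, edgeR adjusted p 0.989) did not pass. The Cytip change rests on 14 to 30 estimated counts per library at 4 weeks and 5 to 17 at 12 weeks. Ccr6 passed the threshold without HET 1 of 12 weeks (0.67, edgeR adjusted p 0.0367), and Fgf3 without HET 93 of 4 weeks (0.81, edgeR adjusted p 0.0479). Age and any difference in processing between the age groups cannot be told apart.

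In WT of the other 5 regions, 12 against 4 weeks, 2 tests of the 13 that passed the filter were called, against 13.6% of tests over all genes. Tagln rose in prefrontal cortex from 2.50 to 5.38 CPM (1.11, SE 0.28, edgeR adjusted p 0.0183). Abi3bp rose in hippocampus from 0.638 to 1.17 CPM (0.87, SE 0.25, edgeR adjusted p 0.0392). Abi3bp in the cortices was 0.31 (SE 0.12, edgeR adjusted p 0.0937) and -0.18 (SE 0.15, edgeR adjusted p 0.416), beside the 1.18 of HET striatum. Sec14l3 in prefrontal cortex was -0.08 (SE 0.30, edgeR adjusted p 0.882). The difference in age effect between regions was not tested. The Abi3bp call in hippocampus was lost without a filter (edgeR adjusted p 0.055) and in 8 of 11 fits that left out a library.

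Relatives and partners of the 7 genes were examined in striatum from lists of families, leaving out the 7 genes themselves. In the fibroblast growth factor list, Fgf17, another secreted ligand, fell at both ages. It was 0.587 ± 0.185 CPM in WT and 0.187 ± 0.0982 in KO at 4 weeks (-1.65, SE 0.34, edgeR adjusted p 0.0126), and 0.942 ± 0.336 and 0.109 ± 0.0241 at 12 weeks (-3.07, SE 0.38, edgeR adjusted p 0.000131). KO libraries of Fgf17 ran from 0.0806 to 0.134 CPM at 12 weeks and WT libraries from 0.498 to 1.27. Fgf12, an intracellular family member, rose at 4 weeks (0.42, SE 0.11, edgeR adjusted p 0.0413), with KO from 69.1 to 106 CPM and WT from 59.0 to 73.3. The Fgf12 call was lost with only the 2 genotypes (0.42, edgeR adjusted p 0.152), with a term for the libraries with few whole values (0.43, edgeR adjusted p 0.0524) and without those libraries (0.47, edgeR adjusted p 0.0554). The 4-week call of Fgf17 was lost with only the 2 genotypes and without the 4 libraries with a raised cortical sum, at log2 fold changes of -1.65 and -1.66 (edgeR adjusted p 0.0744 and 0.0880). These were 1 higher and 1 lower of 19 tested at 4 weeks, and 1 lower of 20 at 12 weeks. Over all genes 3.35% were called at 4 weeks and 4.42% at 12 weeks. The list's median log2 fold change was -0.10 and -0.05.

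**Figure D4:**
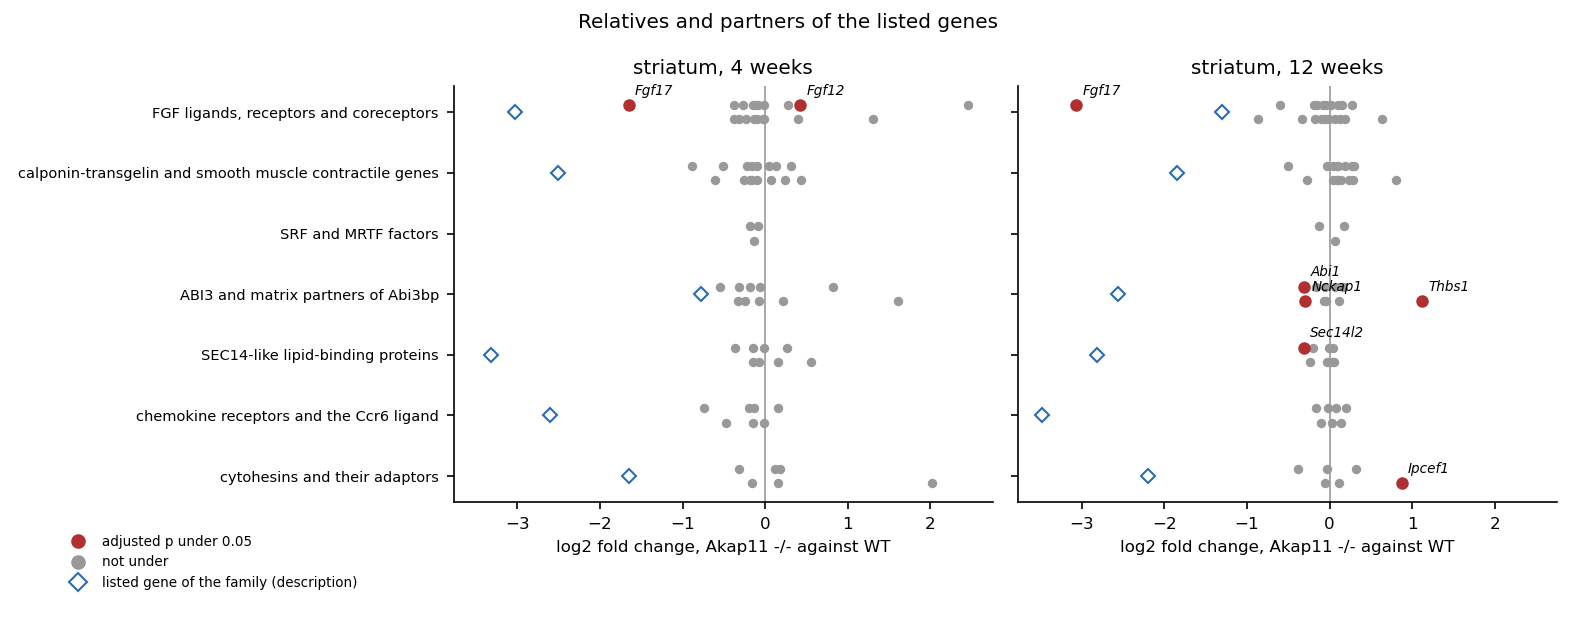
Log2 fold change of KO against WT in striatum for relatives and partners of the 7 genes (dots, 1 per gene), at 4 weeks (left) and 12 weeks (right), with the listed gene of each family as an open diamond. Called genes are red and named. The diamonds lie at or beyond the low end of their families except Fgf3 at 12 weeks, where Fgf17 is lower (-3.07). These genes were chosen for their fall in this contrast, so the place of the diamonds follows from the choice.

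The list of ABI3-related genes and matrix partners of Abi3bp held 3 called genes of 10 tested at 12 weeks and none at 4 weeks. Over all genes 4.42% were called at 12 weeks and 3.35% at 4 weeks. Abi1 (-0.31, SE 0.07, edgeR adjusted p 0.0156) and Nckap1 (-0.30, SE 0.07, edgeR adjusted p 0.0156), both of the actin-regulating WAVE complex, fell by small amounts at levels of 149 to 120 CPM and 774 to 631 CPM. Thbs1, a secreted matrix glycoprotein, rose from 0.768 ± 0.279 to 1.68 ± 0.364 CPM (1.12, SE 0.29, edgeR adjusted p 0.0366). Sec14l2, 1 of 8 tested SEC14-like genes, fell at 12 weeks from 29.6 ± 1.16 to 23.8 ± 1.81 CPM (-0.31, SE 0.06, edgeR adjusted p 0.00442). Ipcef1, which binds cytohesins and was 1 of 6 tested in its list, rose at 12 weeks from 4.94 ± 0.799 to 9.06 ± 1.75 CPM (0.87, SE 0.14, edgeR adjusted p 0.00167), opposite to Cytip. At 4 weeks Ipcef1 ran from 4.04 to 39.7 CPM in WT and 8.39 to 106 in KO (2.02, SE 0.75, edgeR adjusted p 0.156). Thbs1 missed the threshold in 7 of 10 fits that left out a library, and Fgf12 in 6 of 10.

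No relative of Tagln was called. Of 16 tested calponin and smooth muscle contractile genes, 0 were called at either age, with medians of -0.13 at 4 weeks and 0.10 at 12 weeks. Acta2, smooth muscle actin, was -0.89 (SE 0.49, edgeR adjusted p 0.364) at 4 weeks and -0.28 (SE 0.41, edgeR adjusted p 0.838) at 12 weeks. Of SRF and its coactivators, known regulators of Tagln, 3 were tested and 0 called. Among chemokine receptors and the ligand of CCR6, 0 of 7 tested were called at either age, and the 5 other free fatty acid and related receptors did not pass the filter. The number of called relatives at 4 weeks depended on single libraries. It was 2 with all libraries, 11 without KO 12, 6 without KO 12, WT 914 and WT 92, 1 without KO 161, and 4 without the libraries with a raised cortical sum.

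By the correlation of mean log2(CPM + 1) over the 36 groups, 15421 genes were ranked by likeness to each of the 7. The values are descriptions, since striatal KO groups chosen for the fall are among the points. Most groups lie outside striatum, where Ffar3 and Ccr6 were near 0. Genes restricted to striatum can therefore rank high without sharing a difference between genotypes. Ffar3 was most like Ikzf3, Gm10706 and Gpx6 (Pearson r 0.99 for each), and Ccr6 most like Ifi27l2b (0.98), Gm12500 (0.97) and Cyp2a5 (0.97). Abi3bp was most like Pnpla1 (0.97) and Chsy3 (0.96), and Fgf3 most like Odf4 (0.96), Gm13093 (0.94) and Dfna5 (0.94). Sec14l3 went with Ccdc42 (0.93), H2-DMb2 (0.90) and Cyp2a5 (0.88), and Tagln with Il17rc (0.90), Gm12500 (0.84) and Gm13093 (0.82). Cytip had no close match, with Tmem86b, Fkbp9 and Rfx2 at 0.76, 0.76 and 0.75. All the genes named here as alike had a lower mean in KO than in WT striatum at both ages, by small or large amounts. The ranking used the KO groups and favours such genes, so this is a description. Gpx6, as an example, had 12.0 CPM in WT and 4.17 in KO at 4 weeks and 17.7 and 3.63 at 12 weeks. Among the 7 themselves the correlation was highest for Ffar3 and Ccr6 (0.95) and lowest for Abi3bp and Cytip (0.22).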

How the data were processed

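Per the labels' protocols, regions were dissected from frozen brains on a cryostat, RNA was extracted with RNeasy kits, and 200 ng per library went into TruSeq Stranded mRNA libraries. The authors deposited estimated counts per gene, and the submitters' processing notes name Salmon and mm10 without saying whether reads were counted by strand. Of the values above 0, 77.9% were not whole. In 16 of the 4-week libraries at most 5.55% were whole, against 17.3% or more in the rest, and in striatum these were KO 12, WT 914 and WT 92. Groups were taken from the sample labels.

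The counts were rounded to whole numbers and tested with edgeR 4.0.16 (R 4.3.3) in 1 fit per region and age with all 3 genotypes, using TMM, filterByExpr (minimum count 10), quasi-likelihood tests and Benjamini-Hochberg adjustment over all genes, with a threshold of 0.05. Further fits compared regions in HET and ages in HET striatum and in WT of other regions. Printed levels are CPM with TMM factors over all 186 libraries. The fits were tested on simulated data with 100 genes changed per fold size: 72% of 2-fold and 96% of 4-fold changes were recovered for KO against WT in 4-week striatum (15425 genes), and 77% and 93% for HET striatum against other regions at 4 weeks (16979 genes). In the simulation the changed genes were drawn at random and all others had the same mean in every group, unlike the real regions. The shares recovered therefore do not speak for genes with few counts, and they hold no rate of false calls. At 12 weeks the genotypes share replicate numbers. Same-numbered libraries correlated above 0.1 in every pair for WT with KO in hippocampus (0.11 to 0.32) and HET with KO in prefrontal cortex (0.12 to 0.75), and in no other pair of genotypes in a region did all 5 numbers do so. Of 390 pairs of replicates, none agreed within sampling noise (lowest chi-square per degree of freedom 7.97). Alternatives were DESeq2 1.42.0, no filter, only the genotypes compared, a replicate block, leaving out each library, and leaving out 4 libraries with raised cortical markers. A term for the libraries with few whole values, and leaving those out, were chosen after seeing the data. Named genes are the 7, Akap11, up to 3 called genes of each family list, and the 3 genes most like each of the 7 by correlation, among genes with a mean of at least 1 CPM in a group (1 of these is not reported here); Acta2, Gpx6, the called single markers and the uncalled Ipcef1 value at 4 weeks were added after their values were seen. The 7 genes and the lists were chosen with earlier results of these data known. Sequences are from RefSeq (GRCm38.p6), gene positions from the GRCm38 annotation of GENCODE.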

Additional observations from a re-analysis of the deposited data

Results flagged for a closer look

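In 5 of 42 combinations of gene and striatal group of 5 libraries, 1 library stood apart from the other 4 by Dixon's test at the 95% level. Chance alone gives this in about 1 of 20 for normally spread values. The same libraries recur across genes, so the combinations are not independent. All 5 flags fell on the highest library. Fgf3 in HET 2 at 12 weeks was 13.9 CPM, with the next library at 8.43. Tagln was high in the same library, at 23.3 CPM against 8.88 in the next. Tagln in KO 163 at 4 weeks was 3.06 CPM, with the next KO library at 2.36, and remained below all WT libraries. Abi3bp in KO 51 at 4 weeks was 25.3 CPM, with the next KO library at 4.15. Sec14l3 in HET 93 at 4 weeks was 4.11 CPM, with the next at 2.06.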

How the results depend on the processing

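The median log2 fold change of the 7 genes in KO striatum ran from -2.61 to -2.30 at 4 weeks and from -2.41 to -1.98 at 12 weeks when 1 library was left out, and was -2.07 at 12 weeks with a replicate block. Same-numbered 12-week striatal libraries correlated from -0.28 to 0.56, and 11 of 30 correlated best with their own number (13 to 17 of 30 in other regions). In each region that is more than equal odds over the replicate numbers would give. The main 12-week fits held no term for the number. The block gave 7 called relatives at 12 weeks against 6, and 0 calls for the 7 genes in other regions, hippocampus included. Called relatives at 4 weeks, 2 as reported, were 0 with only the 2 genotypes, 4 with DESeq2, 1 with the library subset as a term, 6 without that subset, 4 without KO 51, KO 161, KO 163 and WT 92, and 1 to 11 when 1 library was left out; at 12 weeks they were 4 to 8. The cause was not tested. In HET striatum, 12 against 4 weeks, Tagln, at -0.01, was 0.000657 with DESeq2 and -0.45 to 0.12 with 1 library left out. Ffar3 was -0.47 to 0.024 with 1 library left out. Tests of the 7 in older against younger WT of other regions gave 1 to 4 calls. No call appeared for KO or HET against WT in other regions under any alternative run. Ccr6 and Cytip in KO striatum rest on few counts, so their folds are imprecise.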
